A study of Homo sapiens with 6 samples.

Results

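The nuclear-encoded subunits of oxidative phosphorylation were followed in SKM-1 cells, a human acute myeloid leukemia line, that carried either S34F mutant or wild-type U2AF1. The genes were chosen by name, as symbols that begin as those of the NDUF, SDH, UQCR, COX4 to COX8 and ATP5 families do. Of 137 names that match, 48 end as pseudogene names do and were dropped, and 8 of the 89 left had a mean under 1 FPKM (fragment count divided by transcript length in kilobases and by library depth) over the 6 libraries. This left 81 members of 31142 genes in the table. They were 36 genes of complex I, 4 of complex II, 9 of complex III, 13 of complex IV, 18 of complex V and the readthrough gene NDUFC2-KCTD14, which joins NDUFC2 to its neighbour. Counted among the subunit genes here are also UQCRHL, a paralog (complex III), COX7A2L, a supercomplex factor (complex IV), and ATP5IF1, an inhibitor (complex V).

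The S34F group was 3 libraries of SKM-1 cells labelled S34F mutant U2AF1, and the WT group was 3 libraries of SKM-1 cells labelled with wild-type U2AF1. Cells of both groups were kept for 96 h before total RNA was extracted. The study describes a lentiviral vector with a ubiquitin promoter, a FLAG tag on U2AF1, GFP and puromycin selection, and stably transduced cells, so both forms came in addition to the U2AF1 gene the line already has. The prefix NC on the WT samples is also the abbreviation used in the study for negative controls, and the extraction text speaks of a vehicle control. The samples are called WT here by their titles. The study's results text also names wild-type U2AF1 as the group sequenced beside S34F. It speaks of 3 pairs of independent RNA samples, without saying what made them independent. The labels do not say whether the 3 libraries of a group came from separate transductions or cultures, and the p-values may therefore measure technical spread alone.

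Oxidative phosphorylation is carried out in the inner mitochondrial membrane. Complexes I and II pass electrons from NADH and succinate to ubiquinone, complex III passes them to cytochrome c, complex IV passes them to oxygen, and complex V uses the proton gradient built by complexes I, III and IV to make ATP. Most subunits are encoded in the nucleus and imported, while a small set of core subunits is encoded by the mitochondrial genome, so that the complexes are built from both genomes. In blood cells this pathway supplies ATP and keeps NAD+ and aspartate synthesis going, and myeloid leukemia cells are known for their reliance on it.

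The libraries held about 20.4 to 26.4 M fragments, estimated from the value that 1 fragment has in short single-exon genes, and the 10942 genes whose mean reached 1 FPKM were tested. U2AF1 (ENSG00000160201) stood at 9.24, 9.48 and 9.18 FPKM in S34F and at 8.67, 8.70 and 7.65 FPKM in WT. All 3 S34F libraries lay above the WT libraries, with a log2 fold change of 0.14 (standard error, SE, 0.10; limma adjusted p = 0.9999; exact two-sided permutation p = 0.1). Gene-level values do not tell the mutant from the wild-type transcript. The cell type in the labels was set against its markers. Of 12 erythroid markers, 10 averaged 10 FPKM or more, and their summed level was 12141 to 13909 FPKM in S34F and 11747 to 12839 FPKM in WT. Of 12 monocytic markers 7 were under 1 FPKM, with a summed level of 57.2 to 83.3 FPKM in S34F and 79.6 to 98.7 FPKM in WT. Lymphoid markers summed to 8.91 to 15.2 FPKM in S34F and 16.7 to 17.0 FPKM in WT, and megakaryocyte markers to 1.69 to 2.70 and 2.09 to 2.50 FPKM. The erythroid genes were thus the abundant ones in all 6 libraries, under a label that names a myeloid line, and the part of this in the results was not tested.

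The subunit genes were among the well expressed genes of these cells. Their median level was 51.8 FPKM, against 5.31 FPKM over all genes tested. Of the 81 members, 23 were above 100 FPKM, 51 were between 10 and 100 FPKM and 7 were between 1 and 10 FPKM. Together they took 2.08% to 2.24% of the FPKM of a library, and the 3 highest members held 26.2% of that. The medians by complex, in FPKM per gene, were 32.3 for complex I, 26.1 for complex II, 78.6 for complex III, 106.4 for complex IV and 83.0 for complex V. Within complex I the 7 core subunits, which carry the flavin and the iron-sulfur clusters, had a median of 28.2 FPKM and the 29 accessory subunits one of 39.4 FPKM. FPKM is scaled by transcript length. Base composition and sequence shared with other genes, both described further on, were not corrected for in these levels, so their order is approximate. The plot of the subunit levels shows them in every library.

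**Figure D1:**
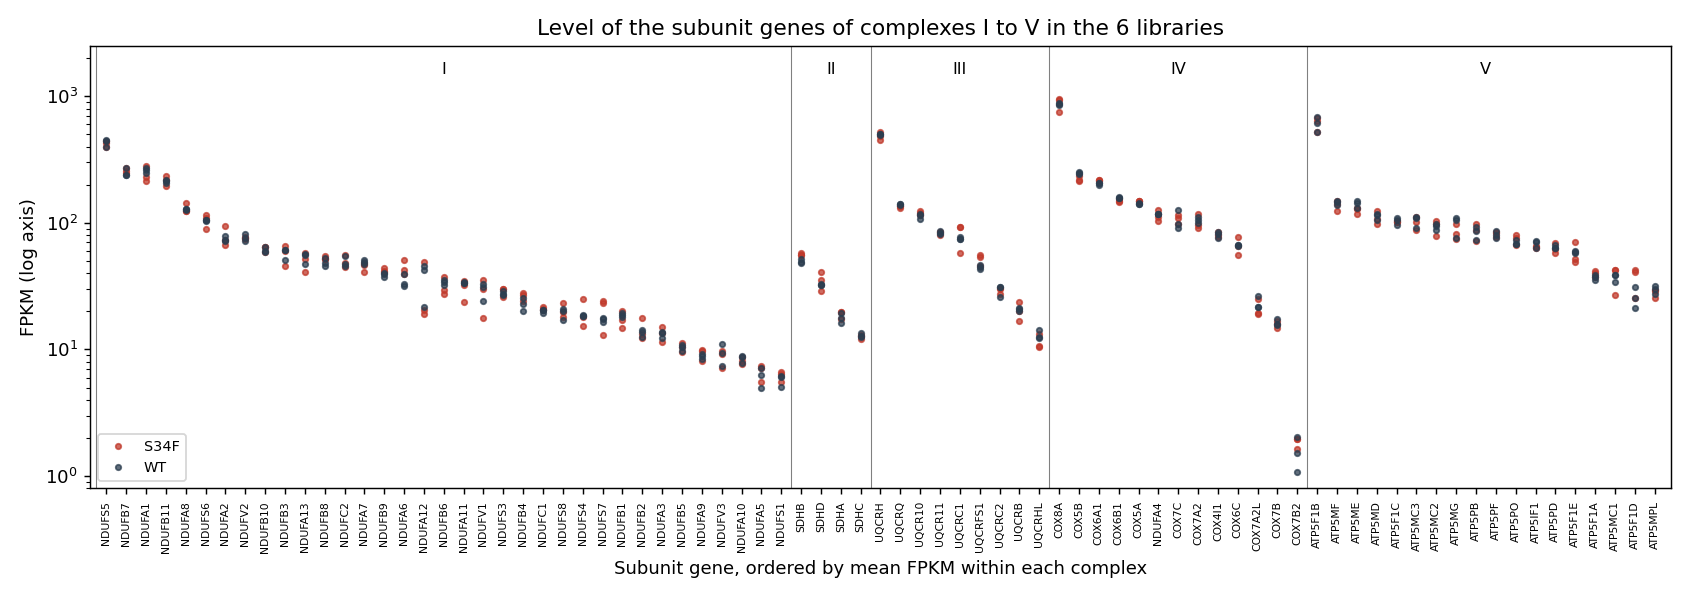
FPKM of 79 of the 80 subunit genes (x axis, ordered by mean FPKM within complexes I to V) on a log y axis, with 1 point for each of the 3 S34F and 3 WT libraries. Levels run from 1.69 FPKM for COX7B2 to 872.1 FPKM for COX8A, and the 6 points of a gene mostly lie close together.

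In complex I the highest gene was NDUFS5, an accessory subunit, at 429.3, 441.5 and 397.1 FPKM in S34F and 441.1, 450.6 and 399.7 FPKM in WT. The lowest was NDUFS1, the largest core subunit, which holds several iron-sulfur clusters, at 6.43, 6.60 and 5.54 FPKM in S34F and 6.17, 6.03 and 5.08 FPKM in WT. The groups overlapped for both genes. In complex II the highest was SDHB, the iron-sulfur subunit, at 57.4, 56.1 and 55.8 FPKM in S34F and 49.0, 48.5 and 51.9 FPKM in WT, so that every S34F library lay above every WT library. The lowest was SDHC, a membrane anchor, at 12.1, 12.8 and 13.1 FPKM in S34F and 12.8, 12.6 and 13.5 FPKM in WT, with overlapping groups. In complex III the highest was UQCRH, the hinge protein at the cytochrome c side, at 451.0, 488.7 and 517.7 FPKM in S34F and 497.2, 506.8 and 507.5 FPKM in WT. The lowest was UQCRHL, an intronless copy of it, at 10.6, 10.5 and 13.3 FPKM in S34F and 12.5, 12.4 and 14.1 FPKM in WT. The groups overlapped for both, and 15.6% of the 100-base stretches of UQCRH transcripts also occur in UQCRHL, so that reads between the pair may be split. In complex IV the highest was COX8A, the ubiquitous form of the small subunit COX8, at 949.4, 927.1 and 753.1 FPKM in S34F and 881.5, 866.5 and 855.1 FPKM in WT. In complex V the highest was ATP5F1B, the catalytic beta subunit, at 637.6, 670.4 and 519.7 FPKM in S34F and 611.4, 683.6 and 522.9 FPKM in WT, while the lowest was ATP5MPL, a small proteolipid, at 25.6, 29.01 and 29.2 FPKM in S34F and 30.1, 31.8 and 27.4 FPKM in WT. For COX8A and for both complex V genes the groups overlapped, and the third S34F library was the lowest of the 6 for COX8A and ATP5F1B.

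Several subunits exist as isoforms used in different tissues, and the ubiquitous form was the expressed one here. COX6B1 stood at a mean of 153.6 FPKM and its testis form COX6B2 at 0.033 FPKM. COX7A2 stood at 104.0 FPKM, with its heart and muscle form COX7A1 at 0.14 FPKM. NDUFA4, now counted to complex IV, stood at 115.5 FPKM against 0.18 FPKM for NDUFA4L2, the form induced in hypoxia. COX7B, with 16.1 FPKM, was set against COX7B2, its testis form and the lowest member, with 1.62, 1.97 and 1.96 FPKM in S34F and 1.07, 1.51 and 2.02 FPKM in WT. COX8C, a further testis form, was at 0.019 FPKM. COX4I1, at 80.4 FPKM, and COX6A1, at 210.0 FPKM, had no alternative form to set beside them, since COX4I2, COX6A2 and the copy ATP5MGL of ATP5MG were not analysed here. The c ring, which turns as protons pass, is made of 1 mature protein from 3 genes, at mean levels of 37.2 FPKM for ATP5MC1, 93.8 FPKM for ATP5MC2 and 101.8 FPKM for ATP5MC3. ATP5MC1 stood at 42.7, 42.5 and 26.8 FPKM in S34F and 38.6, 38.4 and 34.4 FPKM in WT, below the other two in every library. ATP5MC2 stood at 103.6, 97.8 and 78.9 FPKM in S34F and 88.3, 98.8 and 95.3 FPKM in WT, and ATP5MC3 at 101.4, 110.7 and 87.2 FPKM in S34F and 112.0, 109.2 and 90.5 FPKM in WT. Just inside the minimum of 1 FPKM were COX7B2, NDUFC2-KCTD14 at 4.16 FPKM and NDUFS1 at 5.97 FPKM. Just outside were the antisense and divergent transcripts NDUFV2-AS1 at 0.93 FPKM, NDUFB2-AS1 at 0.55 FPKM and NDUFA6-DT at 0.35 FPKM.

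Promoter windows were available for 67 of the 81 members, from RefSeq on GRCh38.p14, and hold 250 bases before and 50 after the annotated start. They were searched on both strands for motifs of factors known at respiratory genes. NRF1, searched as GCATGCGC, was in 13 member windows (19.4%), against 6.48% of the 7793 windows of tested genes and 3.05% of all 35116 windows. The ETS motif, CCGGAAGT, which GABP also reads, was in 10 member windows (14.9%), against 10.5% and 4.14%, and the YY1 motif, AAGATGGCG, in 8 (11.9%), against 4.63% and 1.75%. At least 1 of the 3 was in 25 member windows (37.3%), against 20% of the windows of tested genes and 8.35% of all. A CCAAT box, CCAAT, was in 34.3% of member windows, against 38.1% of those of tested genes, and a TATA box, TATAAA, in 8.96% against 5.22%. By complex, the NRF1 motif was in 5 of 31 windows of complex I, 2 of 3 of complex II, 0 of 7 of complex III, 2 of 11 of complex IV and 4 of 14 of complex V. These are letter matches, not measured binding. Members whose windows were not used here include NDUFB5, NDUFB9, NDUFC2, NDUFS5, SDHC, UQCRB, UQCRHL, COX6C, NDUFA4, ATP5F1B, ATP5F1D, ATP5MC3 and ATP5MF.

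**Figure D2:**
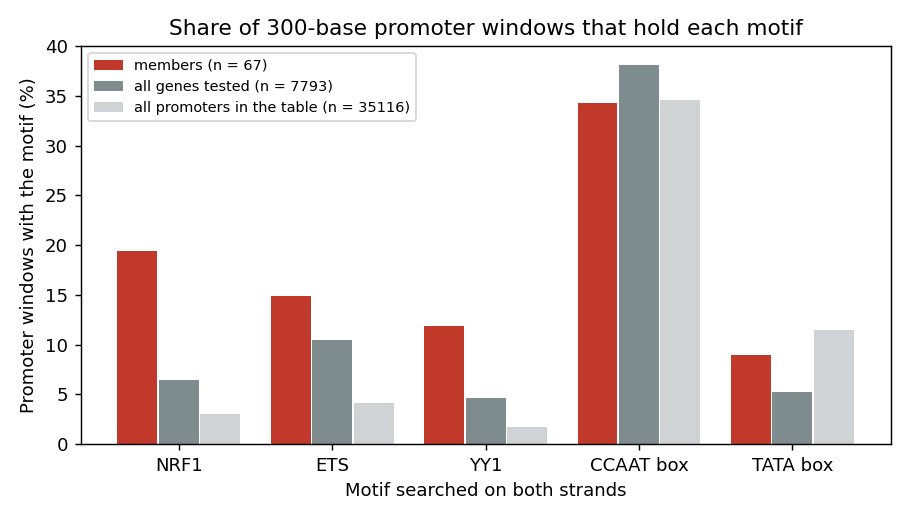
Share in percent (y axis) of 300-base promoter windows that hold each of 5 motifs (x axis) on either strand, for members, all genes tested and all promoters in the table. The NRF1 bar of the members stands at 19.4%, against 6.48% and 3.05%, while the CCAAT bars lie between 34.3% and 38.1%.

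Windows of NDUFA6, SDHB, COX5B, COX6A1 and NDUFS7 are printed from 250 bases before the start to 30 after it. Their genes recur in the comparisons that follow, and each printed window holds an NRF1 match, as 13 of the 67 member windows do. They are therefore not typical of the members compared. The windows of NDUFC1, COX5A, COX6B1, UQCRFS1, NDUFA12 and NDUFV1, which also recur, hold no NRF1, ETS or YY1 match. Those of ATP5ME and NDUFB4 hold an NRF1 match and that of UQCRQ an ETS match. NDUFA6 had the smallest p of any member, SDHB, COX5B and COX6A1 had groups that did not overlap, and NDUFS7 had one of the widest spreads between libraries. Capitals mark whole matches to the NRF1, ETS or YY1 motif on either strand, and each line reads 5′ to 3′ along the gene's strand. The windows are chr22:42090743-42091022 on the minus strand for NDUFA6, chr1:17054003-17054282 on the minus strand for SDHB, chr2:97645812-97646091 on the plus strand for COX5B, chr12:120437863-120438142 on the plus strand for COX6A1 and chr19:1383657-1383936 on the plus strand for NDUFS7.
NDUFA6: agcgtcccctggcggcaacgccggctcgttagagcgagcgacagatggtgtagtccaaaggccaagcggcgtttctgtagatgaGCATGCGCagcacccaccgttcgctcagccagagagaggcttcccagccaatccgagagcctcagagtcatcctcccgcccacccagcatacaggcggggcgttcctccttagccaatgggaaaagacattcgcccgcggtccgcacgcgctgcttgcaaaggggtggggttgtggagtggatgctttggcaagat
SDHB: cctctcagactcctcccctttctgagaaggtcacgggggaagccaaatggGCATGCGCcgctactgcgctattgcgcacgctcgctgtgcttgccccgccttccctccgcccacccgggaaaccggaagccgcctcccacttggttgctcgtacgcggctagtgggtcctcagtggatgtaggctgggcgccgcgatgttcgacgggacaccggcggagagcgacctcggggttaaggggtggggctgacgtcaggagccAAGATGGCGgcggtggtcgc
COX5B: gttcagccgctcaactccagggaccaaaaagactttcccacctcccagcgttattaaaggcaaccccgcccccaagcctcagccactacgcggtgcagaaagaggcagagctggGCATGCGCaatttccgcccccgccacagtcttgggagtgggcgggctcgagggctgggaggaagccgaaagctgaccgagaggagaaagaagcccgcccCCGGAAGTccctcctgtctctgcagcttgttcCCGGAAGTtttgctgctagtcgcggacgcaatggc
COX6A1: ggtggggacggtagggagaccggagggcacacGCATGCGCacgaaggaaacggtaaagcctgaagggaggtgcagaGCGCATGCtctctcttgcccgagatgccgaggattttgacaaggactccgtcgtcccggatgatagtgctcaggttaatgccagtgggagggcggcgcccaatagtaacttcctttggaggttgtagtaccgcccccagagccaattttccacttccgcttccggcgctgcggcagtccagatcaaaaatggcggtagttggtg
NDUFS7: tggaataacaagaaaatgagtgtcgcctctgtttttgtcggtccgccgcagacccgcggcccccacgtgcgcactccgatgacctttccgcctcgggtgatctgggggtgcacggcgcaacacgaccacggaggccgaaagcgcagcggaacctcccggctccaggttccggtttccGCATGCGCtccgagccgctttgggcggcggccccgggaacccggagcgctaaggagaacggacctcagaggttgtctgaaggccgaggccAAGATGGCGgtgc
NDUFA6 and COX6A1 show NRF1 matches alone in these stretches, with 1 and 2 of them. The full window of NDUFA6 also holds 1 YY1 match, which the end of the printed stretch cuts. SDHB and NDUFS7 each show 1 NRF1 and 1 YY1 match, the latter just past the start. COX5B shows 1 NRF1 match and 2 ETS matches.

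The study's comparison asked how S34F changed gene expression. Of the 81 members, 1 had an unadjusted p under 0.05 from limma, NDUFA6, which is 1.23% of them, where 262 of all 10942 genes tested (2.39%) had one. In the direction higher in S34F this was 1 member against 0.823% of all genes, and in the direction lower in S34F it was 0 members against 1.57%. The study's cutoffs, a fold change above 1.5 with an unadjusted p under 0.05, were applied to the limma fit used here. By them 0 members were called, where 0.585% of all genes were. The study's own statistics were not used, so its counts of genes called need not match these. At an adjusted p under 0.05 from limma, 0 members and 0 of all genes (0%) were called. In these bulk samples, fewer cells that express a gene and less of its RNA per cell cannot be told apart. With the replicate number as a block, 2 members (2.47%) had an unadjusted p under 0.05 from limma, among 4.05% of all genes. The members' share was below that of all genes in both fits, and above it in the fits without S34F replicate 3 and without replicate 3 of both groups described further on.

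The fold changes of the members were small and went both ways. Their log2 fold change was above 0 for 39 and below 0 for 42 (above 0 for 31 to 34 under the 3 other scalings of the libraries), with a median of -0.0026 beside 0.015 over all genes tested. The median size without sign was 0.062 on the log2 scale for members and 0.087 for all genes, with median standard errors of 0.12 and 0.14. By complex, the median log2 fold change was 0.015 for complex I, 0.093 for complex II, -0.0087 for complex III, -0.019 for complex IV and -0.030 for complex V. The 95% interval of a member reached a median of 0.27 to either side of its log2 fold change, so for a typical member a change of less than about this size could not be detected. In complex V 12 of the 18 genes were below 0, with 0 of them at an unadjusted p under 0.05 from limma.

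**Figure D3:**
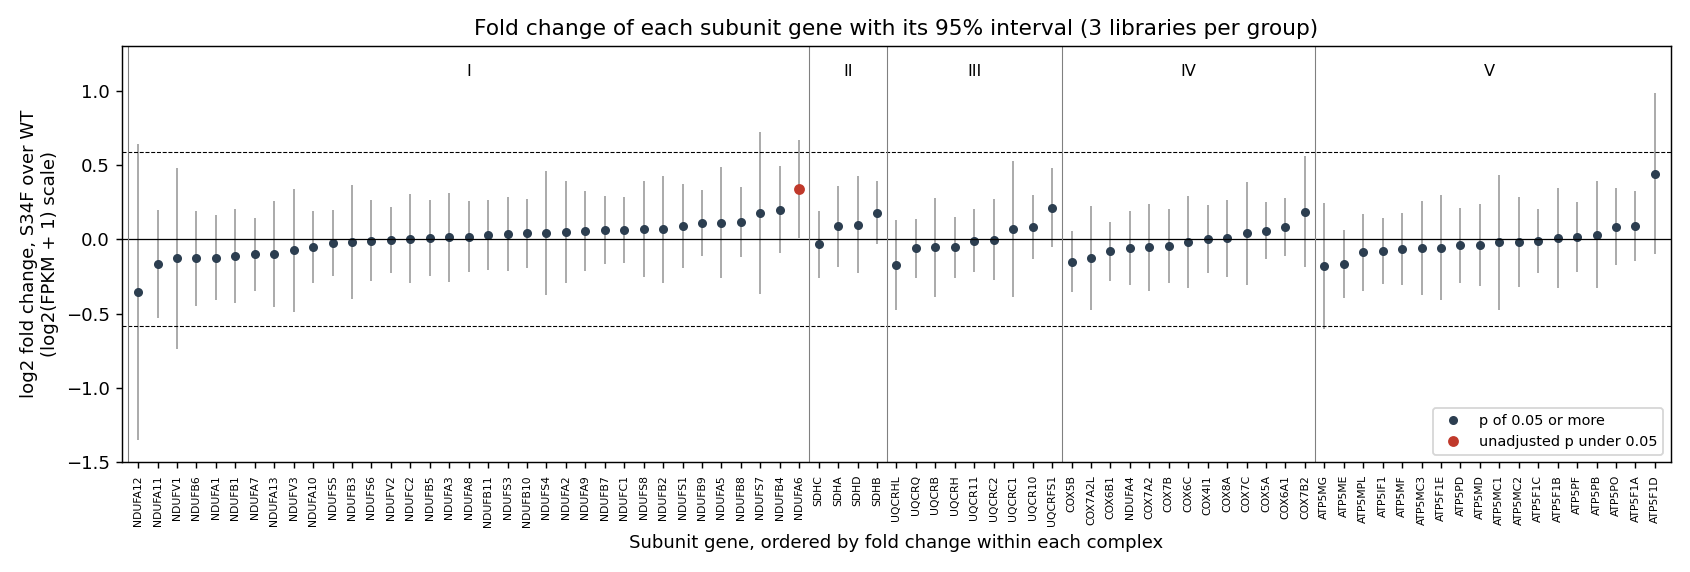
Log2 fold change of S34F over WT (y axis, log2(FPKM + 1) scale) of 79 of the 80 subunit genes (x axis, ordered within complexes I to V), with 95% intervals from limma as bars and dashed lines at a fold of 1.5. All intervals but that of NDUFA6 cross 0, and 0 points lie beyond the dashed lines.

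NDUFA6 (ENSG00000184983), an accessory subunit of complex I with a LYR motif that joins the acyl carrier protein to the complex, stood at 39.4, 42.5 and 50.5 FPKM in S34F and at 31.8, 32.7 and 39.7 FPKM in WT. The S34F libraries were the higher ones, but the lowest of them lay just under the highest WT library, and the third library was the highest in both groups. The means were 44.2 ± 5.68 FPKM in S34F and 34.7 ± 4.31 FPKM in WT (SD, n = 3), with a log2 fold change of 0.34 (SE 0.14; limma p = 0.0461 unadjusted and 0.9999 adjusted; exact two-sided permutation p = 0.2). Under the 3 other scalings its unadjusted p from limma was 0.0654, 0.0722 and 0.0514, at log2 fold changes of 0.33, 0.32 and 0.32. It was 0.00877 with the replicate number as a block and over all alternatives ran from 0.00426 to 0.148. It was over 0.05 without S34F replicate 2 (0.0814), S34F replicate 3 (0.0939), WT replicate 1 (0.148) or WT replicate 2 (0.134). Nor was it under 0.05 in the fit with GC content and transcript length removed from each library, without the block.

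In 9 members the libraries of the groups did not overlap. The 5 higher in S34F were 6.17% of the members, where 3.66% of all genes tested were so, and the 4 lower in S34F were 4.94%, where 3.73% of all genes were so. Higher were SDHB, the complex I accessory subunits NDUFB9 and NDUFC1, and the complex IV subunits COX5A and COX6A1. Lower were COX5B and COX6B1 of complex IV, UQCRQ of complex III and ATP5ME, the e subunit of complex V. Complex IV thus had 2 on each side.

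SDHB (ENSG00000117118), with 56.4 ± 0.891 FPKM in S34F and 49.8 ± 1.84 FPKM in WT (SD, n = 3), had a log2 fold change of 0.18 (SE 0.089; limma p = 0.0867 unadjusted; exact two-sided permutation p = 0.1, the smallest that 3 against 3 can give). COX5B (ENSG00000135940), which binds zinc in complex IV, stood at 216.2, 214.5 and 236.4 FPKM in S34F and 250.9, 247.6 and 242.6 FPKM in WT. Its S34F libraries were all the lower ones, the third by least, with a log2 fold change of -0.15 (SE 0.086; limma p = 0.122 unadjusted; exact two-sided permutation p = 0.1). ATP5ME stood at 117.7, 127.9 and 130.7 FPKM in S34F and 148.2, 143.2 and 131.4 FPKM in WT. The gap between its groups was under 1 FPKM, and the log2 fold change was -0.17 (SE 0.097; limma p = 0.130 unadjusted; exact two-sided permutation p = 0.1).

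COX6A1 stood at 212.8, 218.3 and 217.0 FPKM in S34F and 198.4, 206.0 and 207.5 FPKM in WT, with a log2 fold change of 0.083. Of its 100-base transcript stretches 33.8% occur in other genes, most of them in COX6A1P2, a pseudogene name that had 13.8 FPKM. COX5A, at 149.6, 147.5 and 148.0 FPKM in S34F and 141.3, 144.1 and 141.9 FPKM in WT, was the steadiest of all members, with 1.06-fold between its highest and lowest library. The log2 fold changes of COX5A, NDUFB9, NDUFC1, COX6B1 and UQCRQ were 0.059, 0.11, 0.062, -0.080 and -0.062, with exact permutation p = 0.1 for each.

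The largest rises by size were in ATP5F1D, NDUFA6, UQCRFS1, NDUFB4 and COX7B2, and those other than NDUFA6 did not pass the test. ATP5F1D (ENSG00000099624), the delta subunit in the stalk of complex V, stood at 42.2, 40.8 and 25.3 FPKM in S34F and 25.3, 21.4 and 31.2 FPKM in WT. S34F replicates 1 and 2 were above every WT library, while replicate 3 was at the level of the lower WT libraries, and the log2 fold change was 0.44 (SE 0.23; limma p = 0.0961 unadjusted; exact two-sided permutation p = 0.3). Without S34F replicate 3 it was 0.67, and the limma p was 0.00689 unadjusted. UQCRFS1, the Rieske iron-sulfur protein of complex III, stood at 53.9, 56.1 and 46.0 FPKM in S34F and 44.5, 46.6 and 42.8 FPKM in WT, with a log2 fold change of 0.21 (SE 0.11; limma p = 0.0985 unadjusted; exact two-sided permutation p = 0.2). NDUFB4 stood at 27.1, 24.1 and 27.7 FPKM in S34F and 22.8, 25.6 and 20.1 FPKM in WT, a log2 fold change of 0.20. COX7B2 had a log2 fold change of 0.19.

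The largest falls by size were in NDUFC2-KCTD14, NDUFA12, ATP5MG, UQCRHL and ATP5ME, and 0 of them had an unadjusted p under 0.05 from limma in the main fit. NDUFC2-KCTD14 stood at 4.24, 1.79 and 2.51 FPKM in S34F and 10.2, 2.12 and 4.05 FPKM in WT, with a log2 fold change of -0.59 (SE 0.47; limma p = 0.245 unadjusted; exact two-sided permutation p = 0.5). WT replicate 1 alone held the high value, and 82.9% of the gene's 100-base transcript stretches occur in other genes, mostly NDUFC2. With the replicate number as a block, this gene's unadjusted p from limma was 0.0302, at the same log2 fold change, and without WT replicate 2 it was 0.0463, at -1.02. NDUFA12, a complex I subunit whose paralog NDUFAF2 is an assembly factor, stood at 19.2, 20.5 and 49.1 FPKM in S34F and 45.4, 21.6 and 42.2 FPKM in WT. Its 6 libraries fell into a low set near 20 FPKM and a high set above 40 FPKM that cut across the groups, and the log2 fold change was -0.35 (SE 0.42; limma p = 0.428 unadjusted; exact two-sided permutation p = 0.7). None of its 100-base transcript stretches was found in another gene. ATP5MG, the g subunit of complex V, stood at 74.0, 98.4 and 81.5 FPKM in S34F and 75.5, 105.3 and 109.4 FPKM in WT, a log2 fold change of -0.18. UQCRHL had a log2 fold change of -0.17.

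**Figure D4:**
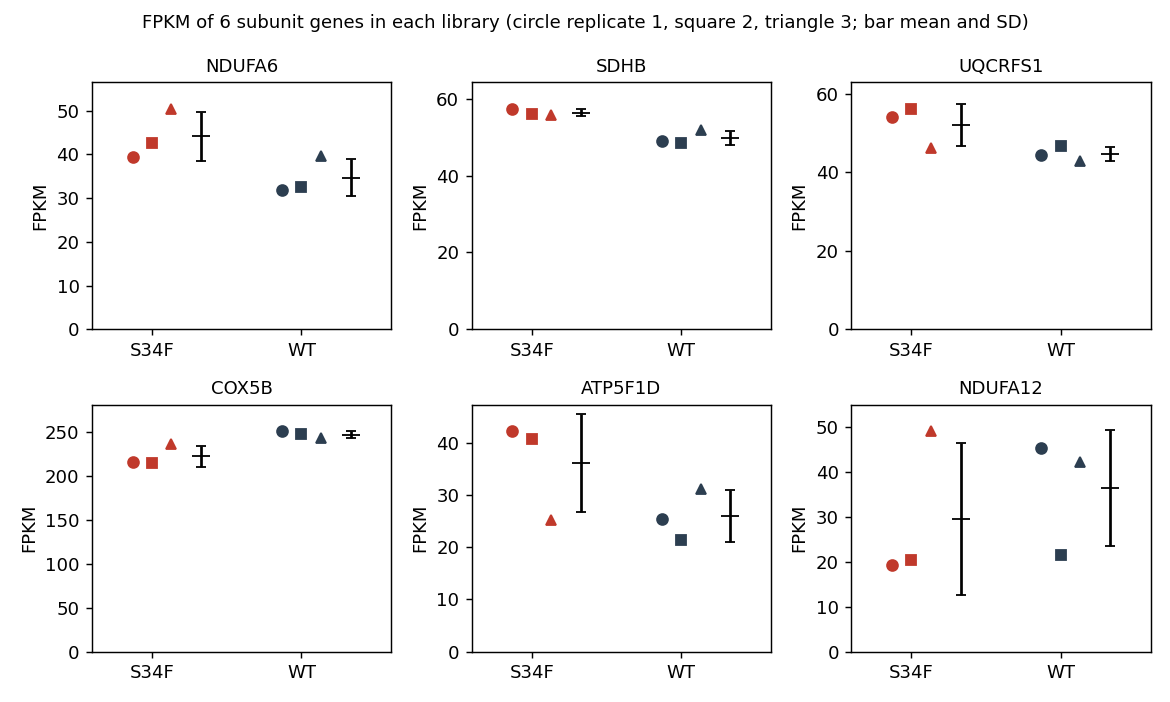
FPKM (y axis, from 0) of 6 subunit genes in the 3 S34F and 3 WT libraries (x axis), with the mean and SD of each group as bars and a symbol for each replicate number. SDHB and COX5B show groups that do not overlap, in ATP5F1D the third S34F library lies with the WT libraries, and in NDUFA12 a low set near 20 FPKM and a high set above 40 FPKM cut across the groups.

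Most members varied little from library to library. The median ratio of a member's highest to its lowest library was 1.26, against 1.51 over all genes tested and 1.40 over the 3582 genes with a mean of at least 10 FPKM. The ratio was over 1.5 in 11 members (13.6%), against 51.3% of all genes tested and 37% of those of at least 10 FPKM. Those members were NDUFC2-KCTD14, NDUFA12, NDUFV1, ATP5F1D, COX7B2, NDUFS7, NDUFS4, UQCRC1, ATP5MC1, NDUFA6 and NDUFV3, named after their values were seen. NDUFV1, which binds NADH and the flavin, stood at 35.2, 29.9 and 17.8 FPKM in S34F and 24.1, 32.8 and 31.4 FPKM in WT. NDUFS7, which holds the last iron-sulfur cluster before ubiquinone, stood at 24.3, 23.4 and 12.9996 FPKM in S34F and 17.3, 17.8 and 16.4 FPKM in WT. UQCRC1, a core protein of complex III, stood at 93.3, 93.1 and 57.8 FPKM in S34F and 77.2, 75.2 and 74.9 FPKM in WT. In NDUFV1, NDUFS7 and UQCRC1 the third S34F library was the lowest of the 6.

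S34F replicates 3 and 1 were the libraries most often at an extreme across the members. S34F replicate 3 was the highest library for 21 and the lowest for 26 of the 81, and S34F replicate 1 for 19 and 23. Over all genes tested S34F replicate 3 was the highest for 31.4% and the lowest for 27.3%. In it all 7 core subunits of complex I were below their own mean, while 12 of the 13 complex IV genes were above theirs. The core subunits were also low in WT replicate 3, where 1 of the 7 was above its own mean. In S34F replicates 3 and 1 the deviations of the members ran with base composition. In S34F replicate 3, the deviation of a member from its own mean over the 6 libraries, on the log2(FPKM + 1) scale, had a Spearman correlation of -0.58 with the GC content of its transcript across 81 members, and in S34F replicate 1 one of 0.55. In the other 4 libraries the value lay between -0.12 and 0.17. Over 10928 genes the values were -0.29 in S34F replicate 3, 0.24 in WT replicate 3 and 0.20 in S34F replicate 1, and between -0.045 and 0.064 in the other 3 libraries, while across the members WT replicate 3 had 0.16. These are descriptions across genes that share a library and are not independent.

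**Figure D5:**
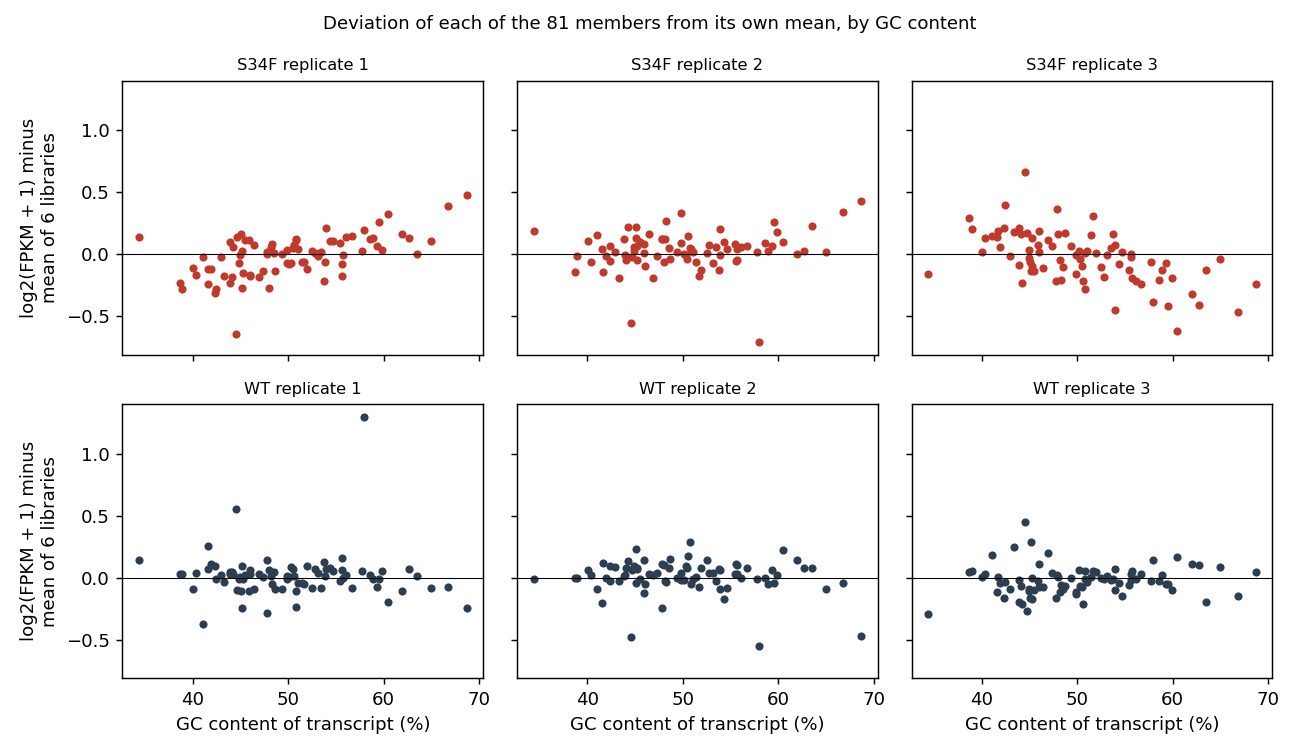
Deviation of each of the 81 members from its own mean over the 6 libraries (y axis, log2(FPKM + 1) scale) against the GC content of its transcript in percent (x axis), 1 panel per library. The points rise with GC in S34F replicate 1, with a Spearman correlation of 0.55, and fall with GC in S34F replicate 3, with -0.58.

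The 27 members of highest GC, from 53.1% up to 68.7%, had a median deviation of -0.13 in S34F replicate 3, where 22 of them were below their own mean, and of 0.11 in S34F replicate 1, where 6 were. The 27 of lowest GC, from 34.4% to 45.9%, had a median deviation of 0.13 in S34F replicate 3 and of -0.12 in S34F replicate 1. ATP5F1D, with 68.7% GC, and NDUFS7, with 66.8%, were the members of highest GC and lay at 0.48 and 0.39 in S34F replicate 1 and at -0.24 and -0.46 in replicate 3. ATP5F1E, the epsilon subunit of complex V, with 38.7% GC, went the other way, at -0.23 and 0.29. Whether GC content plays a part in the differences between the groups was not tested beyond a fit with GC and length removed from each library. In that fit 1 member (1.23%), ATP5F1D, had an unadjusted p under 0.05 from limma, beside 2.87% of all genes. The log2 fold change of ATP5F1D was 0.43 there.

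Without S34F replicate 3, 6 members were higher and 5 lower at an unadjusted p under 0.05 from limma, which is 13.6% of the members beside 10.6% of all genes. Without replicate 3 of both groups, 11 were higher and 10 lower, which is 25.9% of the members beside 16.9% of all genes. With all libraries the share of all genes was 2.39%, so it was larger in both of these fits too. All 11 members of the smaller set were in the larger one, namely ATP5F1D, ATP5F1E, COX5B, NDUFA1, NDUFB6, NDUFS7, SDHB, SDHD, UQCRC1, UQCRFS1 and UQCRHL. The log2 fold change of SDHB was 0.19 and 0.22 in these fits, that of UQCRFS1 0.30 and 0.27, and that of COX5B -0.20 and -0.21. In both fits 0 members had an adjusted p under 0.05, and the smallest adjusted p of a member from limma was 0.201 and 0.109, where it ran up to 1 over the alternatives.

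The 13 subunits of the mitochondrial genome, which join the members in complexes I, III, IV and V, were all below 0 in S34F against WT, with a median log2 fold change of -0.19. The same held under each other scaling, with medians of -0.20 to -0.21. Of the 13, 1 had an unadjusted p under 0.05 from limma, MT-ND6, a complex I core subunit and the only one encoded on the light strand, at 1140, 1045 and 1157 FPKM in S34F and 1514, 1466 and 1284 FPKM in WT. Its log2 fold change was -0.35 (SE 0.096; limma p = 0.00856 unadjusted and 0.9999 adjusted; exact two-sided permutation p = 0.1). The number at an unadjusted p under 0.05 rose to 3 of the 13 with the replicate number as a block (MT-ND4L, MT-ND5 and MT-ND6) and with upper quartile scaling (MT-ND2, MT-ND5 and MT-ND6), and 0 of the 13 had an adjusted p under 0.05 from limma in any fit. In 5 of the 13 (38.5%), MT-ND2, MT-ND4, MT-ND4L, MT-ND5 and MT-ND6, the libraries did not overlap and were lower in S34F, where 3.73% of all genes tested were so. The genes of this set moved together within a library. In WT replicate 3 all 13 were above their own mean, and in S34F replicate 3 it was 1 of them. They are therefore not independent, and these counts are not those of 13 separate results. Without strand in the counting, which is not given in the sources used here, reads of MT-ND6 and of the transcripts opposite to it cannot be told apart. The 13 genes took 21.6%, 22.0% and 16.9% of the FPKM in S34F and 22.7%, 21.7% and 22.3% in WT, so the third S34F library was the low one. Without that library 10 of the 13 were below 0, with a median of -0.098. In that fit 3 were lower at an unadjusted p under 0.05 from limma, where 10.6% of all genes were called in either direction. Without replicate 3 of both groups 10 were below 0, with a median of -0.088. There 5 were lower at that p and 1, MT-CYB, was higher, where 16.9% of all genes were called in either direction. The sum of mitochondrial subunits was 9.81, 9.82 and 7.77 times that of the members in S34F and 10.4, 9.72 and 10.7 times in WT.

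The factors that assemble the complexes also had small fold changes in both directions. Of 48 assembly factors tested, 25 were above and 23 below 0, with a median log2 fold change of 0.022 and 0 at an unadjusted p under 0.05 from limma. The 23 for complex IV ranged widest, from -0.39 for PET117 to 0.34, and PET117 and SURF1, both complex IV factors, were the 2 tested factors whose libraries did not overlap, both lower in S34F, which is 4.17% of the factors beside 3.73% of all genes. PET117 had an unadjusted p under 0.05 from limma under the 3 other scalings. PET117 stood at 3.82, 3.92 and 3.81 FPKM in S34F and 6.995, 4.17 and 5.15 FPKM in WT. The subunits and carriers outside the name rule, NDUFAB1, CYC1 and cytochrome c (CYCS), had log2 fold changes of 0.041, 0.044 and 0.13. Of 11 regulators of mitochondrial genes tested, 8 were above and 3 below 0, and of 13 citric acid cycle enzymes 9 and 4, with medians of 0.041 and 0.048 and 0 of either list at an unadjusted p under 0.05 from limma. NRF1 itself stood at 4.997 to 5.61 FPKM in S34F and 5.33 to 6.21 FPKM in WT. Of the 12 monocytic markers 5 were tested. Among them CD33 and ITGAM were lower in S34F at an unadjusted p under 0.05 from limma, where 1.57% of all genes were lower at that p. Their log2 fold changes were -0.33 and -0.52. Neither had such a p without S34F replicate 1, WT replicate 1 or WT replicate 2. CD33 also had none with upper quartile scaling, or without S34F replicate 2 or WT replicate 3.

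Some members share sequence with other genes. In NDUFV2, NDUFA7, ATP5PO and NDUFC2-KCTD14 between 67.1% and 82.9% of the 100-base transcript stretches also occur in another annotated gene, and in NDUFB8 46.7%, so that their values depend on how such reads were assigned. In the deposited annotation 78 of the 81 members carried the KEGG oxidative phosphorylation term, all but ATP5IF1, ATP5MD and ATP5MPL, and 39 further genes tested carried it. The median transcript length of the members was 702 bases, against 1465 bases over all genes tested, and their median GC content was 49.9%, against 50.9%.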

How the data were processed

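RNA was sequenced from 3 S34F and 3 WT samples. The authors deposited 1 table with FPKM for 31142 genes in each library, not whole counts, and per the labels StringTie and edgeR were among their tools. Aligner, genome build and annotation are not given in the sources used here. The table's columns of the authors' own fold changes, p-values and q-values were not used.

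S34F was compared with WT by limma 3.58.1 (R 4.3.3) on log2(FPKM + 1), moderating variances by empirical Bayes with a trend on the mean, over all 10942 genes with a mean of at least 1 FPKM, with Benjamini-Hochberg adjustment over them. This scale understates changes of low genes. Single genes also had an exact permutation test over the samples. FPKM carry no counts, so no counting intervals were computed. The fit was tested on simulated data.

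Members and lists were chosen with earlier results of these data known. Named in full were the highest and lowest gene of each complex, members at an unadjusted p under 0.05, the 5 largest rises and falls, the c ring, isoform pairs, those nearest to the minimum, and genes of the other lists at an unadjusted p under 0.05. Members whose groups did not overlap or varied most, PET117 and SURF1 were added after their values were seen. Lengths, GC and shared stretches came from GENCODE 29, which holds 31002 of the gene identifiers. Figures used matplotlib 3.10.9 (Python 3.11.15).

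Deviations of same-numbered libraries from their group means correlated across genes at 0.21, 0.17 and 0.38. S34F replicate 2 with WT replicate 1 gave 0.20, and S34F replicate 1 with WT replicate 2 gave 0.13. The third libraries thus went together, while replicates 1 and 2 were not matched by number. These values cannot tell whether the numbers pair the samples. The reported p-values are unpaired, and a fit with the number as a block was run beside them. Alternatives were 3 other scalings, a pseudocount of 0.1, no filter, a minimum of 5 FPKM, no trend, the block and each library left out. A further fit left out replicate 3 of both groups and so kept replicates 1 and 2 of each. GC and length correction was added after seeing the data. A single one of the subunit genes is counted but not reported here by name.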

Additional observations from a re-analysis of the deposited data

How the results depend on the processing

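No member had an adjusted p under 0.05 from limma in any of the 17 alternatives. With the replicate number as a block, 1 member was lower in S34F at an unadjusted p under 0.05 from limma, NDUFC2-KCTD14, which was also past a fold of 1.5 (1 member), beside NDUFA6, among 4.05% of all genes. The block with GC and length correction, chosen after seeing the data, also gave 1 lower member, UQCRHL. With NDUFA6 this made 2 members called (2.47%), beside 5.47% of all genes. The block by number raised the mitochondrial genome subunits at an unadjusted p under 0.05 from limma from 1 to 3 of 13. It changed no call of the other 17 members whose fold change is given, nor the number called in any other list. The 3 other scalings were median-ratio, upper quartile and a total without mitochondrial genome and ribosomal protein genes. Under them 0 members were higher in S34F at an unadjusted p under 0.05 from limma, beside 2.5% to 2.53% of all genes in either direction. With no filter on low values 2 members were higher (2.47%), beside 2.9% of all genes in either direction. With 1 library left out, members higher ranged from 0 to 6, members lower from 0 to 5, and members past a fold of 1.5 from 0 to 1. In those fits 1.48% to 10.6% of all genes were called in either direction. Without replicate 3 of both groups, members higher, lower and past that fold numbered 11, 10 and 1, with 16.9% of all genes called. Across all fits with libraries left out, the median log2 fold change ran from -0.037 to 0.021 for all members, 0.023 to 0.18 for complex II, -0.041 to 0.018 for complex III and -0.11 to 0.019 for complex IV. The cause of these moves was not tested. None of the 18 members whose fold change is given reversed its sign. FPKM hold no counts, and 3 libraries per group limit what can be detected: the median member had a 95% interval of 0.27 on the log2 scale to either side.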
